A study of Mus musculus with 6 samples.

Results

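The genes described here are bleomycin hydrolase (Blmh) and 32 genes that sense, join, recombine or patch broken DNA, 33 of the 22962 genes in the table. They were chosen by name, from a list of break sensing, end joining, recombination and single-strand repair genes, and each was found by its Ensembl identifier. RNA was sequenced from cells labelled alveolar macrophages, the phagocytes of the lung's air spaces, of C57BL/6 mice. All 6 libraries came from lavage cells that stuck to a culture plate 2 weeks after instillation into the trachea. The saline group (labelled control) has 3 libraries, replicates 1, 2 and 3, and the bleomycin group (labelled bleomycin model of pulmonary fibrosis) has 3, replicates 1, 2 and 5. The labels give no age, sex or dose and do not say whether each library is 1 mouse. The p-values therefore cover only how far these libraries spread, which may be technical.

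Bleomycin is a DNA-cutting antibiotic that opens single and double strands and is used to cause lung fibrosis in mice. Bleomycin hydrolase is a cytosolic cysteine protease known for inactivating it. A cut in both strands is signalled by the kinases Atm and Atr and marked on the histone variant that H2afx encodes. It is sealed by end joining, which needs no template, or by recombination, which copies the sister DNA and works mainly in dividing cells. A cut in 1 strand is found by Parp1 and Parp2 and closed by a ligase.

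Values are normalized read counts, that is, reads per gene divided by 1 size factor per library. Fold changes are bleomycin over saline, as log2(value + 1), ± SE, which understates changes of low genes, with a limma test fitted on all 13512 genes that reached a value of 10 in 3 or more libraries. A gene was called at a Benjamini-Hochberg adjusted p under 0.05. The recovered reads numbered 27654799 to 37147983 per library. The 33 genes had 64 to 1832 reads each per library, and all of them passed the filter. Markers of alveolar macrophages were abundant in every library (Siglecf 7228 to 16187), and 6 of 12 fell after bleomycin while 1 rose. All 11 markers of monocyte-derived macrophages rose, from a sum of 2886 to 3666 in saline to 142174 to 268401 in bleomycin libraries, lowest there in replicate 1. Most of that sum is Apoe (2063 to 2479 in saline, 112162 to 203688 in bleomycin libraries). Ccr2 rose less, from 172 to 222 in saline to 875 to 1604 in bleomycin libraries. In these bulk samples, fewer cells of a type and less RNA per cell cannot be told apart, and the part of this shift in the results below was not tested.

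None of the 33 genes rose, by limma, edgeR or DESeq2, and the same 4 fell by each, 2 weeks after bleomycin: Xrcc5 and Xrcc6, the subunits of the Ku ring that caps broken ends, the DNA ligase Lig1, and Mdc1, the scaffold that binds the marked histone. Of all genes tested 9.76% rose and 3.9% fell, against 0% and 12.1% of the 33. At an unadjusted p under 0.05, 1 of the 33 was higher (Palb2) and 7 were lower, against 15.6% and 10.3% of all genes. The median change was log2 -0.20, against -0.01 over all genes tested, and 23 of 33 were below 0, against 51.3% of all genes. The bleomycin libraries lay wholly below the saline libraries in 11 genes and wholly above in 2, against 13.6% and 17.2% of all genes tested, 30.8% together. The changes were small: the 4 falls were 1.42-fold to 1.61-fold, and the 33 genes ranged from log2 -0.69 (Lig1) to 0.68 (Palb2). The total of the 33 genes was 19764, 20767 and 19708 in the saline libraries (replicates 1, 2 and 3), against 17588, 17689 and 17693 after bleomycin (replicates 1, 2 and 5). Without bleomycin replicate 5, 0 of the 33 were called, and without bleomycin replicate 2 only Xrcc5 was. Falls over all genes went from 527 to 162 and 166 in these settings, and to 576 without bleomycin replicate 1. Leaving out saline replicate 1, 2 or 3 left 2 falls each, Xrcc5 and Lig1, and without saline replicate 2 Palb2 rose (adjusted p = 0.0382). Over all genes, those saline settings left 350, 327 and 320 falls. With quantile normalization 59.7% of all calls were rises, against 71.5% of calls on the values as deposited, and 5 of the 33 fell.

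**Figure D1:**
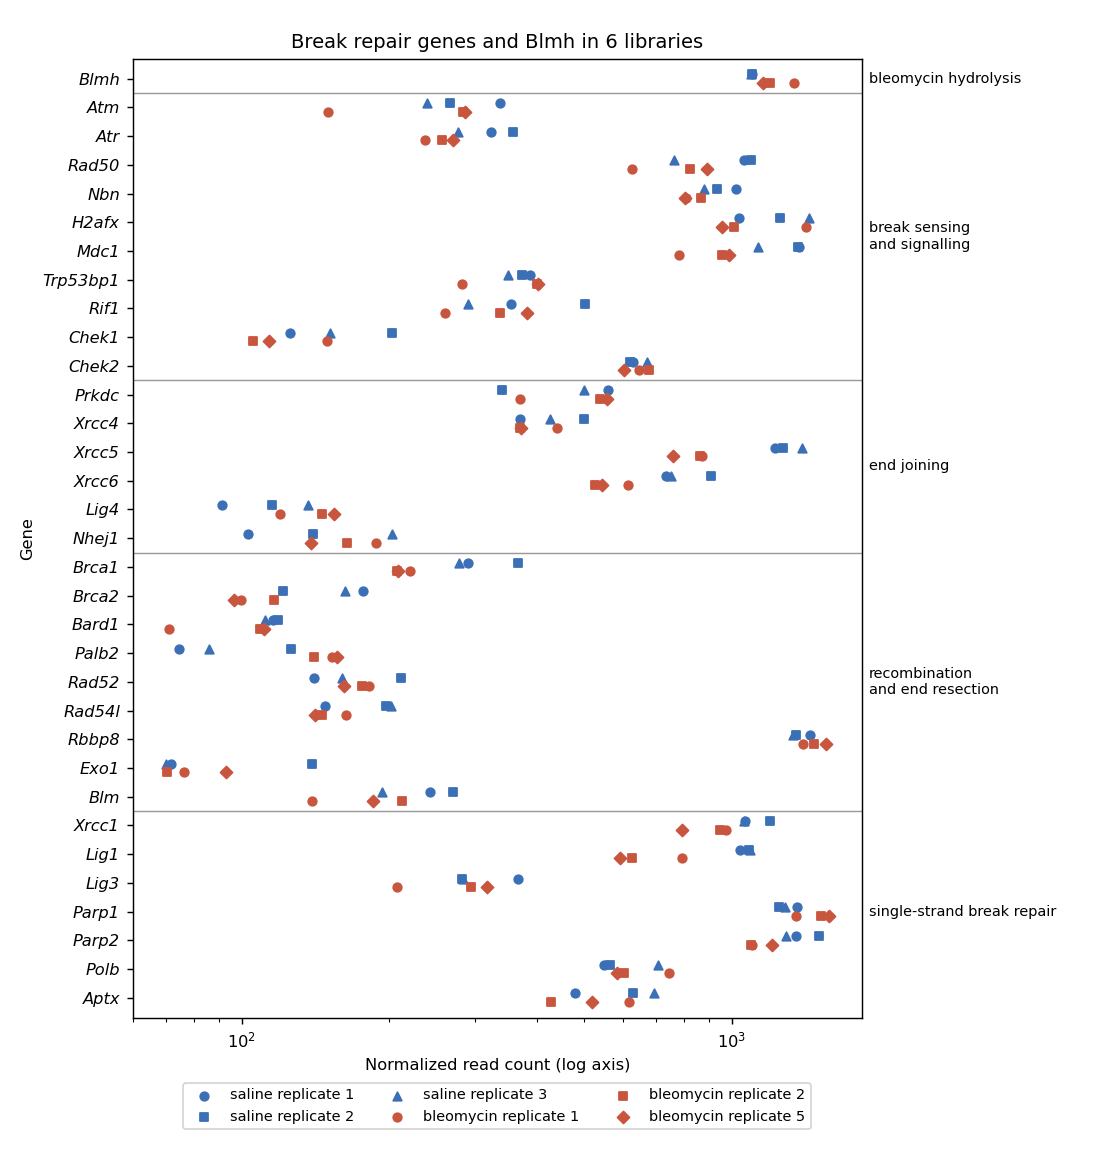
Normalized read count (log axis) of each of the 33 genes in each library, blue for saline and red for bleomycin, with the replicate given by the marker shape and genes grouped by role. The red points of Xrcc5, Xrcc6, Lig1 and Mdc1 sit wholly to the left of the blue, and Palb2 and Blmh show the reverse order.

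Blmh (ENSMUSG00000020840, chromosome 11, 76924809 to 76987379, GRCm38) was measured at 1101, 1101 and 1094 in the saline libraries (replicates 1, 2 and 3), against 1338, 1197 and 1161 after bleomycin (replicates 1, 2 and 5). Every bleomycin library was above every saline library, with the highest value in replicate 1. The difference was 1.12-fold (log2 0.16 ± 0.11, limma adjusted p = 0.437) and did not pass, and its 95% interval ran from 0.936-fold to 1.34-fold. None of the 19 alternative settings called it. The saline libraries spread by only 3.73 (SD) around 1099, against 93.9 around 1232 in bleomycin.

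Among the 10 genes of break sensing and signalling, 1 fell and 9 did not pass, with 9 of 10 below 0 and a median of log2 -0.24. Of all genes tested, 3.9% fell and 51.3% were below 0. Mdc1 (ENSMUSG00000061607, chromosome 17, 35841515 to 35859670) was measured at 1376, 1366 and 1133 in saline, against 779.7, 957 and 988 after bleomycin. The groups did not overlap, and bleomycin replicate 1 was the lowest library. Mdc1 fell 1.42-fold (log2 -0.51 ± 0.14, limma adjusted p = 0.0493). That call sat at the threshold: leaving out any 1 of saline replicates 1, 2 and 3 or bleomycin replicates 1, 2 and 5 gave adjusted p = 0.13, 0.13, 0.0507, 0.094, 0.144 and 0.119 in that order. H2afx, which encodes the histone variant that Mdc1 recognises once it is phosphorylated, had 1036, 1256 and 1439 in saline, against 1417, 1013 and 957 after bleomycin (log2 -0.15 ± 0.19). Its groups overlapped, with bleomycin replicate 1 among the saline values.

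The apical kinases did not pass. Atr, which responds to single-stranded DNA, had 324, 357 and 277 in saline, against 237, 256 and 271 after bleomycin, without overlap (log2 -0.32 ± 0.16, adjusted p = 0.273). Atm, which responds to breaks in both strands, had 336, 266 and 239 in saline, against 150.0, 283 and 285 after bleomycin. Only bleomycin replicate 1 lay outside the saline range, and without it the change of Atm turned from log2 -0.27 ± 0.27 to 0.04. Rad50 and Nbn, partners in the complex that tethers ends and recruits Atm, had log2 -0.32 ± 0.19 and -0.19 ± 0.12. Nbn was lower in every bleomycin library (805 to 868) than in any saline library (880.2 to 1021), but the change did not pass (adjusted p = 0.385). Trp53bp1 and Rif1, which shield ends from resection, had log2 -0.05 ± 0.18 and -0.21 ± 0.24, and their groups overlapped. Neither checkpoint kinase gene passed: Chek2 had 604 to 678 over the 6 libraries (log2 0.01 ± 0.12, -0.03 with quantile normalization) and Chek1 105 to 203 (log2 -0.37 ± 0.25). The 95% interval of Chek2 ran from 0.826-fold to 1.22-fold, and that of Chek1 from 0.526-fold to 1.14-fold. Trp53bp1 shares 15% of its exon length with Tubgcp4 on the other strand and H2afx 10.2% with a microRNA gene, and the strand setting of the counting is not given.

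Of the 6 end joining genes, both Ku subunits fell and the other 4 did not pass (3.9% of all genes fell). Xrcc5 (ENSMUSG00000026187, chromosome 1, 72307421 to 72394952), the larger Ku subunit, was measured at 1224, 1273 and 1390.3 in saline, against 869.5, 861 and 758 after bleomycin. The highest bleomycin library was well under the lowest saline library, and Xrcc5 fell 1.56-fold (log2 -0.64 ± 0.12, limma adjusted p = 0.00893). Xrcc6 (ENSMUSG00000022471, chromosome 15, 81987835 to 82040085), the smaller subunit, had 736, 908 and 754 in saline, against 614, 526 and 544 after bleomycin. Its groups did not overlap either, and it fell 1.42-fold (log2 -0.51 ± 0.14, adjusted p = 0.0475). Per kilobase of exon, the level of Xrcc5 was 2.87 ± 0.389 (SD, n = 3) times that of Xrcc6 in saline and 2.60 ± 0.236 times in bleomycin libraries, and these ratios overlapped. The Xrcc5 call was lost without bleomycin replicate 5 (adjusted p = 0.0687). The Xrcc6 call was lost without saline replicate 1, 2 or 3 (adjusted p = 0.0666, 0.126 and 0.0878) and without bleomycin replicate 2 or 5 (0.222 and 0.206), and it passed without bleomycin replicate 1 (0.0402). With TMM rescaling Xrcc6 did not pass (adjusted p = 0.0633), and 7.69% of its exon length is shared with Desi1 on the other strand.

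The genes for the other end joining proteins, which act at Ku-bound ends, did not pass. Prkdc, the catalytic subunit that Ku recruits to form DNA-dependent protein kinase, had 559.9, 340.1 and 499 in saline, against 369, 538 and 558 after bleomycin (log2 0.07 ± 0.23, adjusted p = 0.89). Saline replicate 2 and bleomycin replicate 1 were the low libraries of their groups, and the sign turned to log2 -0.14 without saline replicate 2, and was also below 0 without bleomycin replicate 2 or 5. Lig4, the end joining ligase, and its partner Xrcc4 had log2 0.30 ± 0.23 and -0.12 ± 0.16. Nhej1, which bridges the ends together with Xrcc4, had 103, 140.2 and 203 in saline, a wider range than the 139 to 188 of the bleomycin libraries (log2 0.18 ± 0.27, or -0.04 with quantile normalization). None of these 4 was called under any of the 19 settings.

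**Figure D2:**
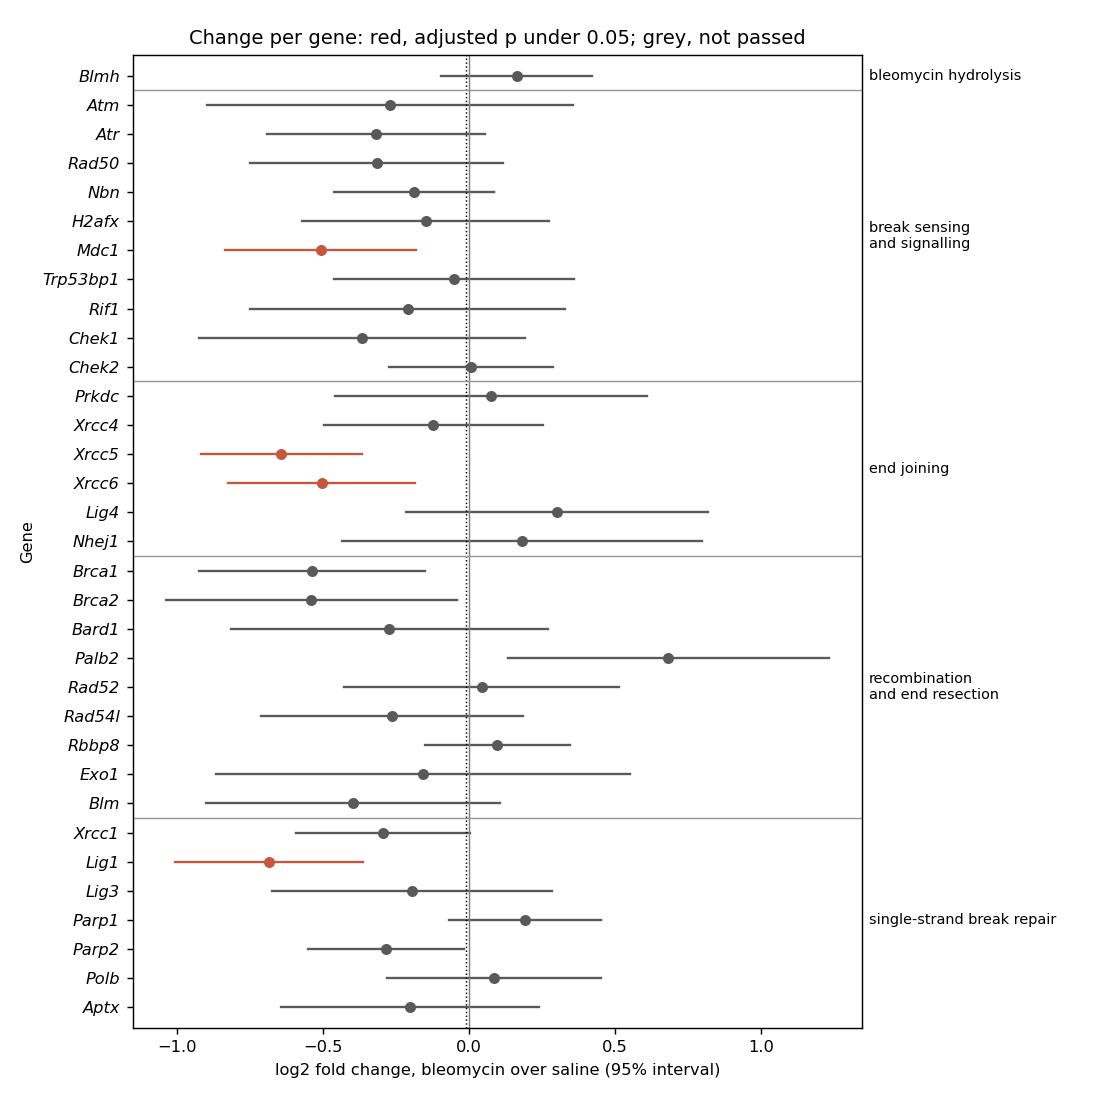
Log2 fold change of each of the 33 genes, bleomycin over saline, as a point with its 95% interval, grouped by role; red genes passed an adjusted p under 0.05 and the dotted line is the median of all genes tested, -0.01. The 4 red genes lie between -0.51 and -0.69, and most intervals span 0.

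None of the 9 recombination genes passed by limma, edgeR or DESeq2, with 6 of 9 below 0 and, at an unadjusted p under 0.05, 2 lower (Brca1 and Brca2) and 1 higher (Palb2). Of all genes tested, 13.7% passed by limma, 51.3% were below 0, and 10.3% were lower and 15.6% higher at that unadjusted threshold. Brca1, the hub of homologous recombination, had 289, 366 and 278 in saline, against 221, 208 and 209 after bleomycin. Its groups did not overlap, and the change was log2 -0.54 ± 0.17 (limma adjusted p = 0.0753, or 0.0361 with quantile normalization). Brca2, which acts at resected ends in recombination, had 177, 122 and 162 in saline, against 99.7, 116 and 96.5 after bleomycin, again without overlap (log2 -0.54 ± 0.22, adjusted p = 0.159). Palb2, which joins the Brca1 and Brca2 proteins, ran the other way, with 74.5, 126 and 85.9 in saline, against 153, 141 and 157 after bleomycin. All 3 bleomycin libraries were above saline, and the change of log2 0.68 ± 0.24 did not pass (adjusted p = 0.111), though without saline replicate 2, its highest saline library, it did (log2 0.90, adjusted p = 0.0382). Bard1, the obligate partner of Brca1, was steady in saline (111 to 118), and only bleomycin replicate 1 (71.0) stood clearly below that (log2 -0.27 ± 0.24, adjusted p = 0.547).

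Genes that cut back or unwind ends showed no common course. Rbbp8, which starts resection together with the Rad50 complex, was the most abundant recombination gene by read count, at 1337 to 1449 in saline and 1396 to 1558 in bleomycin libraries (log2 0.10 ± 0.11, 95% interval 0.900-fold to 1.27-fold). Exo1, the long-range nuclease, was among the lowest of the 33, with 71.6, 139 and 70.0 in saline, against 76.4, 70.3 and 93.1 after bleomycin. Its saline spread comes from replicate 2, and without that library its change turned from log2 -0.16 ± 0.31 to 0.16. The helicase Blm had log2 -0.40 ± 0.22. Rad52, an annealing protein, and Rad54l, a motor that helps strand exchange, had log2 0.04 ± 0.21 and -0.26 ± 0.20. The Rad52 value was -0.16 with quantile normalization, and Rad54l shares 15.4% of its exon length with Lrrc41 on the other strand.

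Of the 7 single-strand break repair genes, Lig1 fell and 6 did not pass (3.9% of all genes fell). Lig1 (ENSMUSG00000056394, chromosome 7, 13277283 to 13311433), the ligase that also joins fragments of the lagging strand during replication, was measured at 1041, 1083 and 1091 in saline, against 791, 627 and 593 after bleomycin. The saline libraries were tightly grouped and all bleomycin libraries lay below them, with replicate 1 nearest. Lig1 fell 1.61-fold (log2 -0.69 ± 0.14, limma adjusted p = 0.0135), the largest fold among the 4. The call was lost without bleomycin replicate 2 (adjusted p = 0.0871) or 5 (0.0873), where Lig1 still had log2 -0.64 and -0.60, and 5.79% of its exon length is shared with Zswim9 on the other strand. Lig3, the ligase that works with Xrcc1, had 367, 281 and 283 in saline, against 208, 294 and 317 after bleomycin (log2 -0.20 ± 0.21), and 25.1% of its exon length is shared with Rffl on the other strand. Xrcc1, the scaffold of the pathway, was lower in each bleomycin library (792 to 974) than in any saline library (1059 to 1197), without passing (log2 -0.30 ± 0.13, adjusted p = 0.196).

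The break sensors Parp1 and Parp2, which make poly(ADP-ribose) at nicks, lay on opposite sides of 0. Parp1 had 1361, 1248 and 1284 in saline, against 1356, 1519.6 and 1579 after bleomycin (log2 0.19 ± 0.11, adjusted p = 0.351). Parp2 had 1355, 1511 and 1292 in saline, against 1100.4, 1097 and 1209 after bleomycin (log2 -0.29 ± 0.12, adjusted p = 0.166). Neither passed. Per kilobase of exon, the level of Parp1 was 0.645 ± 0.0687 (SD, n = 3) times that of Parp2 in saline and 0.896 ± 0.0528 times in bleomycin libraries, without overlap. This ratio was chosen after the values were seen and was given no test. Polb, the gap-filling polymerase, and Aptx, which cleans blocked ends, had log2 0.08 ± 0.16 and -0.20 ± 0.19, and their groups overlapped.

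On a scale of normalized count per kilobase of exon, the level of H2afx was the highest of the 33 genes in saline, at 899, followed by Xrcc5 at 507, Parp2 at 382, Nbn at 373 and Lig1 at 251. Exo1 (11.1), Brca2 (11.2), Palb2 (13) and Atr (13.5) had the lowest levels. The kinase genes Atm and Prkdc each read far below the partner gene set beside it: Atm stood at 27.1 beside Nbn, and Prkdc at 35.4 beside Xrcc5. In bleomycin libraries H2afx was still first, at 816, and Nbn (327), Xrcc5 (325) and Parp2 (313) followed with overlapping ranges over the libraries. Lig1 went from the fifth place to the ninth. These levels use all annotated exons of a gene, so a gene with long unused exons reads low.

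Library differences along gene length touch the long genes of this set. Over all genes tested with a length, the log2 difference of bleomycin replicate 1 from the mean of the 6 libraries had a slope of -0.0835 each time exon length grew by a factor of 2. Saline replicate 3 had a slope of -0.0693, whereas saline replicate 1 (0.0624) and bleomycin replicates 2 and 5 (0.0530 and 0.0555) ran the other way. Bleomycin replicate 1 was the lowest of its group in 9 of the 16 members longer than the median of 5831 bases, and in 4 of the other 17. Across the 33 genes its difference from replicates 2 and 5 had Pearson's r = -0.547 and Spearman's rho = -0.569 with exon length, as a description, since the genes share libraries. Atm, Prkdc, Rif1, Trp53bp1 and Lig3 were all low in that library. With the length trend removed from each library the same 4 genes, Xrcc5, Xrcc6, Lig1 and Mdc1, were called lower (log2 -0.62, -0.49, -0.67 and -0.50).

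**Figure D3:**
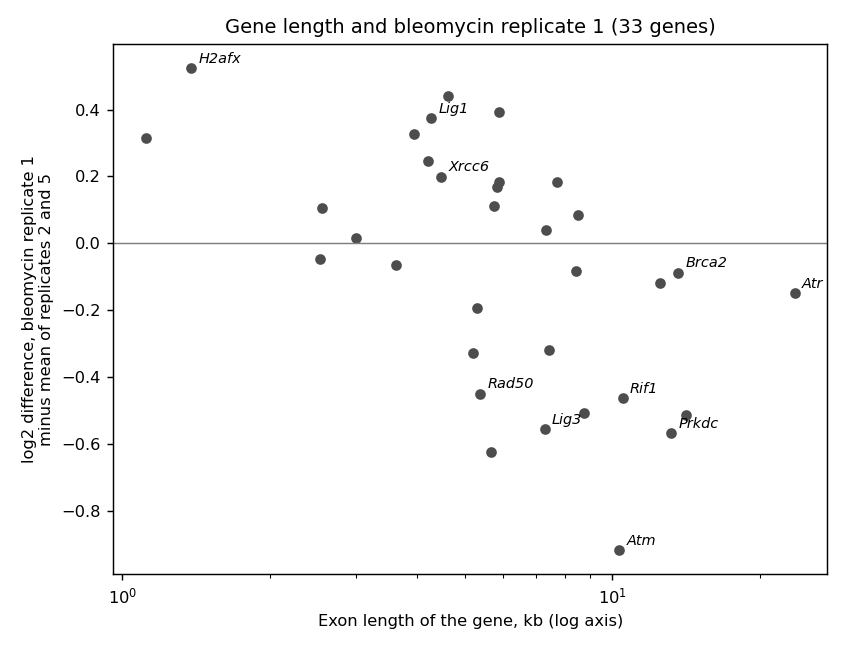
Log2 difference of bleomycin replicate 1 from the mean of bleomycin replicates 2 and 5 (vertical axis) against exon length in kb (log axis), 1 point per gene. The short gene H2afx lies above 0 and the long Atm and Prkdc below it (Pearson's r = -0.547). There are exceptions both ways: Rad50 and Bard1, shorter than the median, lie below 0, and Rad54l, longer than the median, lies above it.

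Because 4 genes moved the same way, sequence near their start sites is shown. Windows of 300 bases around RefSeq start sites (GRCm38.p6), 250 before and 50 after, were found for 25 of the 33 genes, 30 windows in all. Rad50, Nbn, H2afx, Rif1, Prkdc, Rbbp8, Exo1 and Polb were not matched. Capitals mark letters of an E2F site on either strand, the class of site through which E2F factors switch replication genes, or of a CCAAT box on either strand. The E2F forms searched were TTCCCGC, its variant with a central G, which is TTCGCGC, and a pair that opens with TTG, written TTGCCGC and, last, TTGGCGC. The last of these, read on the other strand, can overlap CCAAT. The stretches before the starts of Xrcc5 (chr1:72307171-72307420, plus strand) and Mdc1 (chr17:35841248-35841497, plus strand) hold no annotated exon and are given whole. For Xrcc6 and Lig1, 30 bases around the E2F letters are given, all on the plus strand. Those of Xrcc6 (chr15:82016311-82016340) lie before its RefSeq start at 82016369, which is inside the gene span given above (81987835 to 82040085). All 250 bases before that start lie in annotated exons, of Desi1 and Xrcc6. Lig1 has several RefSeq starts, and its E2F letters lie just after 1 of them (chr7:13278846-13278875, site a) and just after another (chr7:13279256-13279285, site b). The 250 bases before the start of site b hold no annotated exon and no E2F letters. Before the start of site a, exons of Zswim9 leave a longest exon-free stretch of 104 bases. The Lig1 window at chr7:13276925-13277224 holds no E2F letters, and its 250 bases before the start lie in Zswim9 exons.
Xrcc5: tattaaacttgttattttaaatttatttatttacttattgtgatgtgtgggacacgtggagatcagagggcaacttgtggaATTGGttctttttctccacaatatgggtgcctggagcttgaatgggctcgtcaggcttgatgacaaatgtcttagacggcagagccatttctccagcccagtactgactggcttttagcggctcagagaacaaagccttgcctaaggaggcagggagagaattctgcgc
Mdc1: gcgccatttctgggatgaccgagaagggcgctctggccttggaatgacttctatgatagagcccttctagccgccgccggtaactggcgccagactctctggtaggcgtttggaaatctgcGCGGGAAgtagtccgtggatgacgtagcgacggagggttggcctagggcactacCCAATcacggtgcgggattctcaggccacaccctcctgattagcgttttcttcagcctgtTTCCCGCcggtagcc
Xrcc6: cagggggtggaaGCGGGAAatgcgagtggg
Lig1 site a: aagtgcGCGCGAAatctgtgtgGCGCGAAt
Lig1 site b: tcagaattagtgGCGCCAAgagaagagggg

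The E2F letters stood in 15 of the 30 windows of the set (50%), against 9.57% of 32851 windows of all genes, while the CCAAT letters stood in 40% against 37.4%. The windows of the set were richer in G and C (median 59.3% against 52.7%), which was not matched in this count. Another motif, the cell-cycle homology letters TTTGAA, stood in 1 of the 30 windows (Bard1), against 17.9% of all windows. The 13 genes with E2F letters (Atm, Bard1, Blm, Brca1, Brca2, Chek1, Chek2, Lig1, Lig4, Mdc1, Rad52, Xrcc4 and Xrcc6) had a median change of log2 -0.37, with 10 below 0 and 3 called. The 12 with a window and no such letters had -0.20, with 8 below 0 and 1 called, Xrcc5. Of all genes tested, 3.9% were called lower and 51.3% were below 0. A match is a description of letters and not of binding.

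Other genes of the same pathways were read from lists chosen by name. A further 111 names of repair genes matched 106 rows, of which 105 could be tested: 1 rose (0.952%, against 9.76% of all genes), 5 fell (4.76%, against 3.9%) and 77 were below 0 (73.3%, against 51.3%), with a median of log2 -0.20. Of 25 other single-strand repair genes, 3 fell. Pole, the catalytic subunit of the leading-strand polymerase, had 404, 397 and 383 in saline, against 187, 203 and 225 after bleomycin (log2 -0.94 ± 0.15, limma adjusted p = 0.00446). Every bleomycin library was far below every saline library. Pold1, the lagging-strand polymerase subunit, fell 1.58-fold and Tdp1, which frees trapped topoisomerase and other blocked ends, 1.42-fold (adjusted p = 0.015 and 0.0315). Of 22 other sensing genes 1 fell, Rad9a of the checkpoint clamp (1.39-fold, adjusted p = 0.0384), while Tipin (log2 -0.63, adjusted p = 0.074) and Telo2 (-0.43, 0.164) did not pass by limma. DESeq2 called Tipin, which helps hold stalled forks, lower as well, and limma did with the length trend removed (adjusted p = 0.0239) or without bleomycin replicate 1 (0.0263). Of 12 other end joining genes 0 passed by limma, edgeR or DESeq2, against 13.7% of all genes by limma. At an unadjusted p under 0.05, 1 was lower (against 10.3% of all genes), Polq of the alternative pathway (log2 -0.63, adjusted p = 0.124, or 0.0319 with quantile normalization). Polm and Rev3l had log2 0.35 and 0.40.

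Of 46 other recombination genes 1 rose and 1 fell, against 9.76% and 3.9% of all genes. Zranb3 (ENSMUSG00000036086, chromosome 1, 127954184 to 128103047), a helicase that remodels stalled replication forks, was measured at 435, 261 and 465 in saline, against 2901, 3271 and 3840.1 after bleomycin. The groups were far apart, and Zranb3 rose 8.82-fold (log2 3.14 ± 0.22, limma adjusted p = 0.000119), in each of the 19 settings. It shares 7.78% of its exon length with an antisense gene. Rpa1, the large subunit of the protein that coats single-stranded DNA, fell 1.35-fold from 2128, 2138 and 2113 to 1788, 1450.3 and 1521 (adjusted p = 0.0439), and Brip1, a Brca1-binding helicase, did not pass (log2 -0.49, adjusted p = 0.129, or 0.0397 with quantile normalization). The 5 falls of other repair genes were 1 without bleomycin replicate 2 or 5, 2 without saline replicate 1, 2 or 3, and 8 without bleomycin replicate 1. Over all genes, the 527 falls were 166 and 162, then 350, 327 and 320, then 576, in the same order.

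Genes of replication and mitosis were followed in the same libraries because Lig1 and the recombination genes serve dividing cells. Of 30 such genes 7 fell (23.3%, against 3.9% of all genes), 0 rose (against 9.76%) by limma, edgeR or DESeq2, or at an unadjusted p under 0.05, and 28 were below 0 (against 51.3%), with a median of log2 -0.31. Of the replicative helicase, 4 subunits fell: Mcm5 1.85-fold, Mcm7 1.65-fold, Mcm2 1.63-fold and Mcm6 1.51-fold (limma adjusted p = 0.00589, 0.00344, 0.00833 and 0.0327). Its Mcm3 and Mcm4 subunits, also on the list, did not pass. Also lower were E2f1, a driver of S phase genes (1.42-fold, adjusted p = 0.0434), and the mitotic genes Tpx2 and Top2a (1.31-fold each, adjusted p = 0.0448 and 0.0456). The count was 5 without bleomycin replicate 1, 3 without bleomycin replicate 2, 2 without bleomycin replicate 5, 6 without saline replicate 1 and 3 without saline replicate 2 or 3. Falls over all genes, in the same order of libraries, were 576, 166, 162, 350, 327 and 320, against 527 with all libraries. The part of cell division in the falls of Lig1, Mdc1, Xrcc5 and Xrcc6 was not tested.

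**Figure D4:**
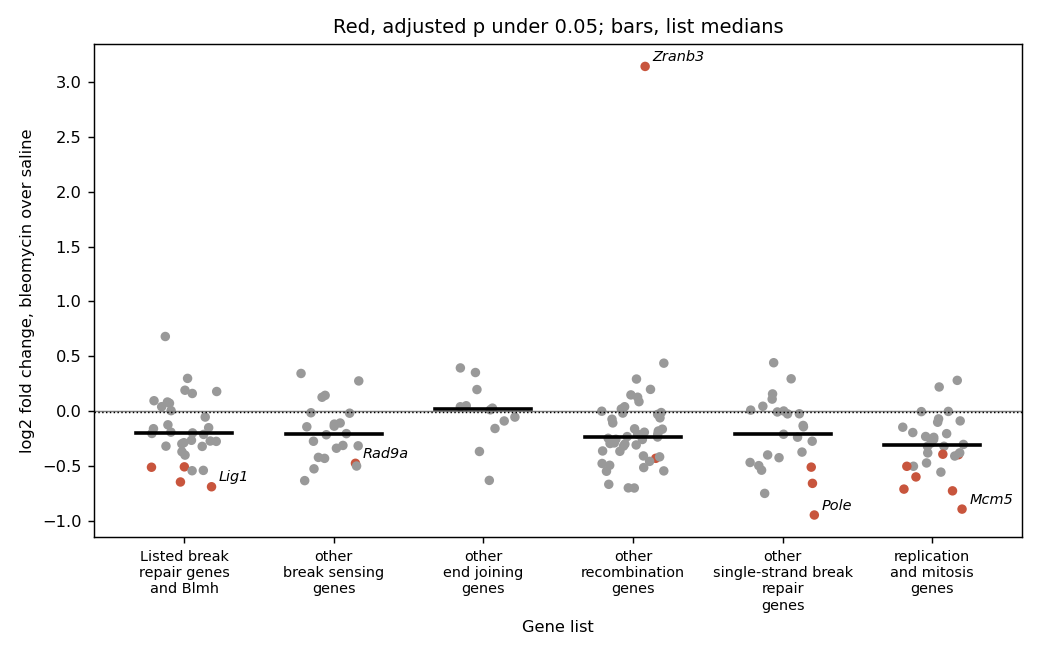
Log2 fold change of each tested gene in the 33-gene set and in 5 lists of related genes, with red for an adjusted p under 0.05, bars for list medians and a dotted line for the median of all genes. Medians lie between -0.31 (replication and mitosis) and 0.02 (other end joining), and Zranb3 stands alone at 3.14.

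Markers of other cells moved with the treatment as well. Of 14 markers of T and NK cells 13 were tested, 12 rose and 1 fell, Cd2, which makes up most of the list's sum (12925 to 15654 in saline, 10084 to 11874 in bleomycin libraries). Cd3e, a defining T cell gene, had 2.94, 0 and 1.06 in saline, against 21.6, 75.8 and 88.8 after bleomycin. Of 7 B cell markers 2 of 3 tested rose, with a sum of 4517 to 5213 in saline and 5230 to 6707 in bleomycin libraries, most of it Cd22. Sums of neutrophil markers were higher in bleomycin libraries (3 of 4 tested rose, sum 1523 to 2126 against 4543 to 5243). The largest part of that sum is Mmp8 (998 to 1536 in saline, 2608 to 3383 in bleomycin libraries). The groups of S100a9 overlapped, with 503 in saline replicate 2, and Camp and Retnlg had at most 1.8 and 2.2 in bleomycin libraries. Sums of dendritic cell markers were also higher in bleomycin libraries (5 of 8 rose, sum 286 to 666 against 1024 to 2177). Those of fibroblast markers overlapped (2 of 5 rose, sum 35.3 to 323 against 229 to 859.7). Epithelial markers rose in 5 and fell in 2 of 10, with a sum of 24670 to 31905 against 11828 to 18995. Most of that sum is Krt19 (17693 to 25286 in saline, 7091 to 14085 in bleomycin libraries) and Epcam, both lower in every bleomycin library. Sftpc, Sftpb, Sftpa1, Krt8 and Krt18 were higher in every bleomycin library than in any saline library. The groups of Scgb1a1, Cdh1 and Foxj1 overlapped. Nkg7, Gzma, Pax5, Siglech, Camp and Lum were at 0 in each saline library. Red blood cell markers had sums of 9.78 to 12.7 in saline and 8.62 to 126 in bleomycin libraries. Their part in the results for the repair genes was not tested.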

How the data were processed

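Total RNA of adherent lavage cells was sequenced, per the labels' protocols. The submitters' processing notes name HTSeq 0.6.0, STAR 2.5.2b, DESeq2, bcl2fastq 2.18.0.12 and the build mm10. Their roles, the strand setting and the annotation release: not given in the sources used here. What the authors deposited is a normalized signal, 1 value per gene and library. Values were whole multiples of 1 read for 100% of values above 0 (within 0.05 of a read), so reads were recovered; 3 reads correspond to 2.59 to 3.3. Symbols were matched for 22873 of 22962 genes, and positions are from GENCODE on GRCm38, the assembly mm10 names.

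Genes were tested with limma 3.58.1 (R 4.3.3) on log2(value + 1), with an intensity trend, bleomycin against saline, with no other term. On recovered reads edgeR 4.0.16 called 1303 genes higher and 518 lower, and DESeq2 1.42.0 called 1693 and 667. The 33 genes, the lists and the alternatives were chosen with earlier results of these data known. Named genes are the 33, any called gene of the related lists and the 3 with the smallest p in each. Mutyh, Neil3, Neil2 and Ube2t, and the markers given by name, were chosen after their values were seen.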

Additional observations from a re-analysis of the deposited data

How the results depend on the processing

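Of 627 values of the 33 genes over 19 alternative settings, 575 kept their direction and their side of the threshold, 27 were calls no longer passed, 2 newly passed and 23 changed sign, in genes with no call. Of the 4 falls (0 rises), 2 remained in number with no filter, with no intensity trend, and on leaving out saline replicate 2 with bleomycin replicate 1, and 0 to 3 without single libraries (rises 0 to 1). The 5 falls of other repair genes were 3 with no filter or no intensity trend, 11 with quantile normalization and 1 to 8 without single libraries. The 7 falls of replication genes were 4 with TMM rescaling or no intensity trend and 2 to 6 without single libraries. Over all genes, the 527 falls were 461 with no filter, 354 with no intensity trend and 475 with TMM rescaling. They were 752 with quantile normalization and 162 to 576 without single libraries. Log2 values that changed sign were those of Chek2 (-0.029), Nhej1 (-0.040) and Rad52 (-0.16) with quantile normalization. Leaving out saline replicate 2 with bleomycin replicate 1 gave Atm 0.0055, Trp53bp1 0.13, Rif1 0.16, Chek2 -0.022, Exo1 0.19 and Polb -0.070. Without single libraries the values ran from -0.43 to 0.035 (Atm), -0.14 to 0.12 (Trp53bp1), -0.39 to 0.0056 (Rif1), -0.033 to 0.050 (Chek2), -0.14 to 0.26 (Prkdc), -0.055 to 0.43 (Nhej1), -0.088 to 0.21 (Rad52), -0.33 to 0.16 (Exo1) and -0.024 to 0.20 (Polb). The cause was not tested.

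With the replicate number as a block, 0 of the 33 genes, 1 other repair gene and 0 replication genes fell, against 194 of all genes. H2afx turned to log2 0.070. The block leaves the group difference to replicates 1 and 2, because numbers 3 and 5 each occur in 1 group. Deviations from the group means correlated at -0.20 between the libraries numbered 1 and 0.02 between those numbered 2, so the numbers were not taken as pairs. The 33 genes had 64 reads or more per library, and 3 libraries per group limit the precision.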

Other observations

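DNA glycosylases, which lift damaged bases out of DNA before a strand is cut, were grouped after their values were seen. None of the 11 passed by limma, edgeR or DESeq2, with 2 lower and 0 higher at an unadjusted p under 0.05 and a median of log2 -0.21. Of all genes tested, 13.7% passed by limma, and 10.3% were lower and 15.6% higher at that unadjusted threshold. Neil3, a glycosylase of replicating cells, had 259, 252 and 293 in saline, against 175, 203 and 175 after bleomycin (log2 -0.54 ± 0.17, limma adjusted p = 0.07, or 0.0335 with quantile normalization). Mutyh, which removes adenine opposite oxidised guanine, had 101.0, 92.4 and 89.1 in saline, against 73.7, 45.0 and 51.7 after bleomycin (log2 -0.75 ± 0.26, adjusted p = 0.104, or 0.0373 with quantile normalization and 0.0466 without bleomycin replicate 1). Neil2 was higher in every bleomycin library (97.9 to 110) than in any saline library (63.7 to 85.9), with log2 0.44 ± 0.22 (adjusted p = 0.26).

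None of 11 genes of the Fanconi anaemia pathway, which repairs crosslinks, passed by limma, edgeR or DESeq2, and 0 were lower or higher at an unadjusted p under 0.05. Of all genes tested, 13.7% passed by limma, and 10.3% were lower and 15.6% higher at that unadjusted threshold. The lowest of the 11 by fold change, Ube2t, had log2 -0.48 ± 0.23 (adjusted p = 0.238).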
